A study of Mus musculus with 6 samples.

Results

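Long noncoding RNAs are transcripts that are not translated into protein, and 9 of them that are often used as examples of abundant or widely made noncoding RNAs were examined in inguinal white adipose tissue (iWAT): Malat1, Neat1, Gas5, Snhg1, Snhg8, Snhg12, Kcnq1ot1, Rian and Mirg. Members were the rows of the count table that carry one of these symbols. Of the 9 symbols, 7 had a row, 6 had at least 1 count in a library, and 3 (Malat1, Gas5 and Snhg1) passed edgeR's filter on low counts. The table held 37024 rows for 19509 symbols, of which the 7 members took 23 rows, and 15 of those 23 rows were at 0 in all 6 libraries. Rows for Snhg8 and Kcnq1ot1 were not found under these symbols, and both RNAs were not analysed here. Measured this way, Malat1 was among the most highly counted genes of the tissue, Gas5 lay near the middle of the protein-coding genes, Snhg1 and Snhg12 lay lower, Rian and Mirg had at most 2 counts in a library, and Neat1 was listed at 0. Among the members with counts, the description as abundant therefore fitted Malat1 in this table and not the counts listed for Gas5, Snhg1, Snhg12, Rian or Mirg, each of which has several rows, some at 0, and may be undercounted. For Neat1, listed at 0, and for Snhg8 and Kcnq1ot1 it was not assessed.

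The study asked what the long noncoding RNA Lexis does in fat, and bulk RNA-seq compared iWAT of Lexis-AdWT and Lexis-AdKO mice with 3 libraries in each group. All mice were on a C57BL/6 background and ate a Western diet, which is rich in fat and cholesterol, for 12 weeks. AdKO mice carried the Lexis fl/fl allele with Adipoq-cre, a transgene in which the adiponectin promoter drives the recombinase in adipocytes, so the other cells of the depot keep the gene. AdWT mice were their littermate controls, and neither the sex nor the age of the mice in these libraries was given in the sources used here. Whole tissue was lysed, so each value is a sum over adipocytes, stromal cells, vessels and immune cells, and fewer cells of a type cannot be told apart from less RNA per cell.

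Several of these RNAs are known for where they act. Malat1 stays in the nucleus, where it gathers at nuclear speckles, bodies rich in splicing factors, and Neat1 is the RNA around which paraspeckles are built. Gas5, Snhg1, Snhg8 and Snhg12 are host genes of small nucleolar RNAs (snoRNAs): the snoRNAs that guide modification of ribosomal RNA are cut from their introns, while the spliced exons are exported and, because ribosomes find premature stop codons in them, degraded by nonsense-mediated decay. Kcnq1ot1, Rian and Mirg come from imprinted domains, where only the copy inherited from one parent is transcribed. Rian and Mirg lie in the maternally expressed cluster of the Dlk1-Dio3 domain and carry snoRNAs and microRNAs.

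Transcripts of many snoRNA host genes are known to begin within a run of pyrimidines, the 5′ terminal oligopyrimidine tract. The 20 bases before and the 20 bases from the annotated start are shown for the 4 members with at least 5 counts in every library, so that the 3 snoRNA hosts can be read beside Malat1, and for Gas5 the window is that of the second annotated start. They were taken from RefSeq (GRCm38.p6), which had promoters for 8 of the 9 members. Capitals mark the longest run of C and T that touches the 10 bases on either side of the start, read on the strand of the gene.
Gas5: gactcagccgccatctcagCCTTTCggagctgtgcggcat
Snhg1: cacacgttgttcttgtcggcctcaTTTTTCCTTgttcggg
Snhg12: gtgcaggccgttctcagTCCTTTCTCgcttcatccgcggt
Malat1: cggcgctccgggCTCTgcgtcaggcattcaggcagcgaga
The run was 9 bases long in Snhg1 and Snhg12, and 9.4% of all 27025 mouse promoters in the table held a run at least as long in the same window. In Gas5 it was 6 bases at the second of its annotated starts (29.1% of promoters) and 3 bases at the first (83.0%). In Snhg1 the run begins at base 5 counted from the annotated start and does not include the start itself. In Malat1 it was 4 bases, which is also the median over all promoters (64.0% held a run of 4 or more). Other noncoding snoRNA hosts varied widely, from 2 bases in Snhg14 to 10 in Snhg18, and the run was no longer than that of Malat1 in Snhg11, Snhg14, Snhg15, Snhg20, Zfas1 and Dancr and at the first start of Snhg17, so these windows do not set the hosts apart as a class. The windows lie on GRCm38.p6 at chr1:161035146-161035185 on the plus strand for Gas5, chr19:8723467-8723506 on the plus strand for Snhg1, chr4:132308658-132308697 on the plus strand for Snhg12 and chr19:5802653-5802692 on the minus strand for Malat1. A run of these letters is a description of the sequence, and initiation sites were not measured.

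The reads were aligned to mm9, and gene models were read from GENCODE M1 on the same assembly (NCBIM37). There Malat1 lies at chr19:5795690-5802671 on the minus strand with 6982 bases of exon, which is the full length of its span. Neat1 lies close by at chr19:5824708-5845478 on the same strand with 20771 exonic bases. Gas5 lies at chr1:162964553-162968670, Snhg1 at chr19:8797986-8800932 and Snhg12 at chr4:131864593-131866939, all on the plus strand, with 3760, 2947 and 1626 bases of exon. Rian (chr12:110842155-110899919) and Mirg (chr12:110973191-110987665) follow each other on the plus strand of chromosome 12. The annotation placed 9 snoRNA genes within Gas5, 8 within Snhg1, 4 within Snhg12 and 13 within Rian, and 9 microRNA genes within Mirg.

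Total counts per library lay between 14470542 and 17882713, and the limit that a count of 0 leaves, 3 counts, came to 0.168 to 0.207 CPM (counts scaled to the same total in each library), for counting error only. Scd1, a fatty acid desaturase and the row with the most counts, took 14.9% to 17.5% of a library. Exact matches of the study's Lexis RNA FISH probes to NCBIM37 were used to find the row of the targeted gene: of 16 probes, 9 matched within 4930412L05Rik (chr4:53217938-53230729, minus strand), a lincRNA gene, and 1 matched only elsewhere. The row of 4930412L05Rik held 8, 9 and 8 counts in the libraries labelled AdWT and 21, 11 and 13 counts in those labelled AdKO, so the targeted gene was not lower under the AdKO label, and group names here are those of the labels. The deposited row does not separate exons, so it cannot show which part of the gene was read. By qRT-PCR, the paper reports that Lexis expression was lost in adipose tissues of AdKO mice. How that measure relates to the few counts of this row was not tested. Summed adipocyte markers were 46145 to 54601 CPM in AdWT and 41339 to 42007 CPM in AdKO, with 1 of 6 tested members higher and 5 lower in AdKO. Summed skeletal muscle markers were 33.8 to 187 CPM in AdWT, highest in AdWT 2, and at most 20.4 CPM in AdKO, with all 6 tested lower in AdKO. Of these 6, 5 had an unadjusted p under 0.05 in edgeR, where 2.98% of all rows were lower at that p. None of the 6 had an adjusted p under 0.05 there. DESeq2 fitted 10 muscle markers and gave 5 of them (Ckm, Mylpf, Atp2a1, Tnnc2 and Mybpc2) an adjusted p under 0.05, against 0.392% of the rows to which it gave one. Muscle rows can pass a filter through AdWT alone, where they were high, so these counts are a description. With at least 10 counts required in every library, edgeR tested 2, of which 2 were lower and 1 had an unadjusted p under 0.05. Summed epithelial markers were highest in AdWT 3 (20.3 CPM) and AdKO 3 (48.1 CPM) and at most 1.44 CPM in the other 4 libraries. Progenitor, endothelial, macrophage and lymphocyte marker sums overlapped between the groups. The lymphocyte sum was highest in AdWT 1 (31.8 CPM) and at most 15.7 CPM in the other libraries. All 4 lymphocyte markers tested were lower in AdKO, and without AdWT 1 the split was 2 higher and 2 lower. The part of these differences in the values below was not tested.

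Malat1 stood far above the other members. Its single row held 16929, 21011 and 16717 counts in the AdWT libraries and 17449, 19461 and 25037 counts in the AdKO libraries. These are 0.109% to 0.157% of all counts, with exact 95% binomial intervals of 0.1074% to 0.1107% in the lowest library, AdWT 3, and 0.1547% to 0.1586% in the highest, AdKO 3. These intervals cover counting error only, take reads as independent molecules and leave out the spread between samples. Ranked by total count, Malat1 was number 75 of the 19509 symbols.

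**Figure D1:**
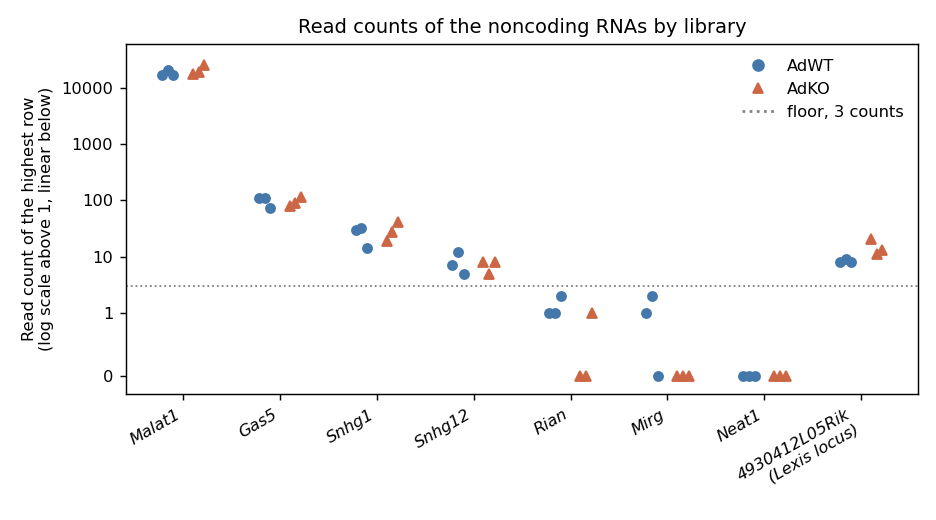
Read count of each noncoding RNA in the 6 libraries (circles, AdWT; triangles, AdKO; log scale above 1, linear below), taking for each symbol its row with the highest total, with the floor of 3 counts dotted. Malat1 lay between 16717 and 25037 counts, Gas5 between 73 and 113, and Rian, Mirg and Neat1 at or under 2.

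Between the groups Malat1 overlapped. After scaling by the trimmed mean of M values (TMM), its level was 1106, 1254 and 1117 CPM in AdWT and 1198, 1280 and 1502 CPM in AdKO, that is 1159 ± 82.6 CPM (SD, n = 3) against 1327 ± 157 CPM (SD, n = 3). The highest AdWT library, AdWT 2, lay above the lowest AdKO library, AdKO 1. The log2 fold change of AdKO over AdWT was 0.19 (standard error, SE, 0.108, unadjusted p = 0.112, adjusted p = 0.853 by quasi-likelihood in edgeR, adjusted by the Benjamini-Hochberg method, BH, over 9872 rows). On log2 CPM, an exact two-sided permutation test gave p = 0.2, where 3 libraries against 3 cannot go below p = 0.1. The difference in means was larger than the SD of either group but passed neither test. Without AdKO 3 it was 0.10 on the log2 scale, and without AdKO 1 it was 0.26.

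Gas5, named for its accumulation in growth-arrested cells, was counted far below Malat1. Of its 6 rows, 1 held 111, 109 and 73 counts in AdWT and 81, 89 and 113 counts in AdKO, and the other 5 were at 0 in all libraries. The group means were 6.21 ± 1.21 CPM (SD, n = 3) in AdWT and 6.06 ± 0.637 CPM (SD, n = 3) in AdKO. The lowest and the highest library were both AdWT, and all AdKO values lay between them. The log2 fold change was -0.03 (SE 0.196, adjusted p = 0.983, edgeR quasi-likelihood, BH-adjusted), and the exact permutation test gave p = 1.0. Gas5 overlaps part of Zbtb37 on the opposite strand, but that gene held at most 5 counts in a library.

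Snhg1 hosts snoRNAs of the box C/D family, which guide methylation of ribosomal RNA. Of its 3 rows, the highest held 30, 33 and 14 counts in AdWT and 19, 27 and 42 counts in AdKO, the next held 6 to 11 counts per library, and the last was at 0. The level of the highest row was 1.62 ± 0.594 CPM (SD, n = 3) in AdWT and 1.87 ± 0.613 CPM (SD, n = 3) in AdKO. Both its lowest value, 0.935 CPM in AdWT 3, and its highest, 2.52 CPM in AdKO 3, fell in libraries numbered 3, and the groups overlapped. The log2 fold change was 0.20 (SE 0.365, adjusted p = 0.923, edgeR quasi-likelihood, BH-adjusted) and -0.02 (SE 0.41) in the second row. Leaving out AdWT 3 or AdKO 3 turned the direction of the highest row, to -0.08 in each case.

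Snhg12 hosts snoRNAs of both the H/ACA and the C/D family and held 7, 12 and 5 counts in AdWT and 8, 5 and 8 counts in AdKO in 1 of its 2 rows, the other being at 0. Its level was 0.503 ± 0.195 CPM (SD, n = 3) in AdWT and 0.453 ± 0.113 CPM (SD, n = 3) in AdKO. It did not pass the filter, and its mean log2 CPM differed by -0.107 between AdKO and AdWT (p = 0.9 in a two-sided exact permutation test). The difference was smaller than the spread between libraries, each of which held 5 to 12 counts.

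The snoRNAs themselves were mostly without rows or near 0. Within Gas5, 1 of 9 snoRNA genes had a row, Snord47, with 3, 4 and 1 counts in AdWT and 6, 4 and 13 counts in AdKO. Within Snhg12 all 4 had a row: Snora44 held 8, 16 and 11 counts in AdWT and 3, 7 and 11 in AdKO, and Snora61 held 16, 20 and 8 counts in AdWT and 9, 13 and 14 in AdKO. Snora44 and Snora61 overlapped between AdWT and AdKO, and the lowest AdKO count of Snord47 equalled its highest AdWT count. Snora16a held at most 8 counts, Snord99 was at 0, and Snord22, within Snhg1, was also at 0. Such short RNAs overlap the introns of the host, and a read from an unspliced host transcript cannot be told apart from a read of the snoRNA in a table of this kind.

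Gas5, Snhg1 and Snhg12 were also read together. Their summed counts were 148, 154 and 92 in AdWT and 108, 121 and 163 in AdKO. As a share of all counts the mean log2 value was 0.074 higher in AdKO (two-sided exact permutation test, p = 0.9), 0.026 higher with TMM-normalized library sizes, and -0.137 without AdWT 3 and -0.06 without AdKO 3, so it had no settled direction. Across the 6 libraries Gas5 and Snhg1 varied in the same direction: Pearson's r of log2 TMM-normalized CPM was 0.903 (exact permutation p = 0.0167, adjusted p = 0.0334 over 2 pairs) and Spearman's rho was 0.829 (exact permutation p = 0.0583, adjusted p = 0.117). The rank correlation thus did not pass the threshold that the linear one passed when adjusted over 2 pairs. Without AdWT 1 and AdWT 3, the libraries farthest from the median of Gas5, r was 0.944 in the remaining 4 (exact permutation p = 0.0417, the smallest that 4 libraries can give). Snhg1 and Snhg12 gave r = 0.390 (exact permutation p = 0.433, adjusted p = 0.433) and rho = 0.429 (exact permutation p = 0.419, adjusted p = 0.419), and r = 0.266 without AdWT 3 and AdKO 1. Of 6 pairs planned among members, the other 4 involve RNAs with no counts, no row or at most 2 counts in a library and were not computed. The adjustment had been planned over 6 pairs, so the adjusted p-values over 2 pairs are less strict than planned. Both members of a pair come from the same library, so its scaling, tissue composition and RNA quality are shared.

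**Figure D2:**
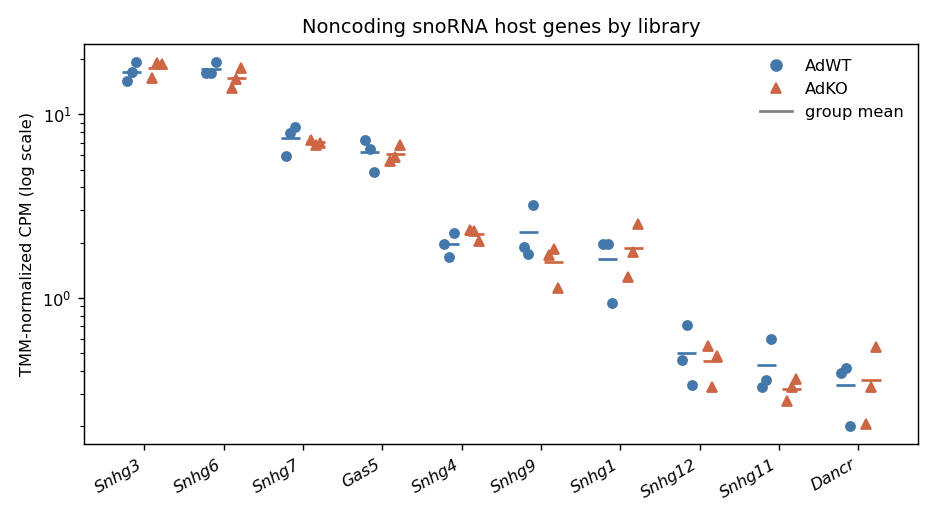
TMM-normalized CPM (log scale) of the noncoding snoRNA host genes with a row, by library, with the group mean as a bar. Gas5 lay between 4.88 and 7.25 CPM and Snhg1 between 0.935 and 2.52 CPM, and AdWT and AdKO overlapped in every gene shown.

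Other noncoding snoRNA hosts gave the range in which these members fall. Of 16 further host genes listed, 7 had a row and 5 were tested, of which 2 were higher and 3 lower in AdKO, the median log2 fold change being -0.082 against 0.007 over all 9872 rows. That median was -0.186 without AdWT 1 and 0.017 without AdWT 3, so it had no settled direction either. Snhg3, the host of an H/ACA snoRNA, held 229 to 312 counts per library with a log2 fold change of 0.06 (SE 0.136, adjusted p = 0.94, edgeR quasi-likelihood, BH-adjusted). Snhg6 held 202 to 297 counts with a log2 fold change of -0.16 (SE 0.133, adjusted p = 0.873, the same test). None of the 5 reached an unadjusted p under 0.05. The summed level of the 7 was 47.2 ± 5.5 CPM (SD, n = 3) in AdWT and 45.1 ± 3.3 CPM (SD, n = 3) in AdKO (exact permutation p = 0.7).

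Rian and Mirg could not be compared at this depth. Rian, which carries a large array of C/D snoRNAs, had 5 rows, of which 1 held 1, 1 and 2 counts in AdWT and 0, 0 and 1 in AdKO, and the others were at 0. Mirg, a microRNA host, had 4 rows, of which 1 held 1, 2 and 0 counts in AdWT and 0 in every AdKO library, and another held 1 count in AdKO 3. Summed over libraries these are 4 against 1 counts for Rian and 3 against 1 for Mirg, and no library exceeded the floor of 3 counts, so no fold change is given. The microRNA rows within them also held at most 1 count.

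Meg3, the first noncoding gene of the same cluster, was detected and is named here after its values were seen. Its highest row of 5 held 111, 69 and 73 counts in AdWT and 49, 111 and 95 in AdKO, with a log2 fold change of 0.01 (SE 0.327, adjusted p = 0.996, edgeR quasi-likelihood, BH-adjusted). Of 11 neighbours listed for the Dlk1-Dio3 domain, 8 had a row, Dlk1 and Wars were listed at 0, and 4 were tested, 3 higher and 1 lower in AdKO with none at an unadjusted p under 0.05. The split turned to 1 higher and 3 lower without AdWT 2, without AdKO 2 or without AdKO 3. Yy1, a zinc finger transcription factor, held 1920 to 2412 counts (log2 fold change -0.06, SE 0.0655), and Wdr25 held 102 to 158 counts (log2 fold change 0.21, SE 0.153).

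Kcnq1ot1 silences neighbours on the paternal chromosome 7 in cis and was not analysed here, but 12 of 14 listed genes of its domain had a row. The test covered 4, with 2 higher and 2 lower in AdKO, and 4 were listed at 0. The split ranged from 1 higher and 4 lower without AdWT 3 to 4 higher and 1 lower without AdKO 3. Cd81, a tetraspanin of the cell surface, was at 1166 ± 39.5 CPM in AdWT and 1181 ± 26.8 CPM in AdKO (SD, n = 3 each). Nap1l4, a histone chaperone, held 45, 46 and 50 counts in AdWT and 34, 31 and 34 in AdKO. All AdKO values of Nap1l4 lay below all AdWT values, as in 5.72% of all rows, with a log2 fold change of -0.49 (SE 0.188, unadjusted p = 0.0327, adjusted p = 0.851, edgeR quasi-likelihood, BH-adjusted), which did not pass the adjusted threshold. Of all rows tested, 2.98% were lower in AdKO at an unadjusted p under 0.05.

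Neat1 was listed at 0 in both of its rows in all 6 libraries. This value is given as listed and not read as absence, because Tardbp and Hnrnpa1, which encode RNA-binding proteins made in nearly every cell, and Pnpla2, the main triglyceride lipase of adipocytes, were also listed at 0. Among the 16424 protein-coding symbols with a gene model, 30.5% of those with 1 row, 22.2% of those with 2 rows and 18.0% of those with 3 or more rows were at 0 in every row. How reads shared between rows of a symbol were counted was not given in the sources used here, so members with several rows may be undercounted. Malat1 and 4930412L05Rik each had a single row.

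The proteins of the bodies that Neat1 and Malat1 belong to were counted from lists. Of 17 genes of paraspeckle proteins, 15 had a row and 9 were tested, 5 higher and 4 lower in AdKO, at a median of 0.109 on the log2 scale and none at an unadjusted p under 0.05. Sfpq, a core paraspeckle protein, was at 321 ± 28.9 CPM in AdWT and 312 ± 30.6 CPM in AdKO (SD, n = 3 each). Cpsf6, a cleavage and polyadenylation factor, was at 32.8 ± 10.2 CPM and 41.8 ± 2.96 CPM (SD, n = 3 each). Neither of these differed beyond the spread between replicates, with log2 fold changes of -0.04 (SE 0.1) and 0.35 (SE 0.222).

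Nuclear speckle scaffold and splicing protein genes mostly had higher means in AdKO, and whether they vary with Malat1 was not tested. Of 12 listed, 10 had a row and 8 were tested, and all 8 had a log2 fold change above 0, where 51.7% of all rows tested did, with a median of 0.196. Srsf3, a splicing factor of the SR family, held 300, 339 and 336 counts in AdWT and 390, 407 and 406 in AdKO. Each AdKO value of Srsf3 lay above each AdWT value, as in 6.16% of all rows tested. Its level was 20.8 ± 1.5 CPM in AdWT against 26.0 ± 1.39 CPM in AdKO (SD, n = 3 each), with a log2 fold change of 0.32 (SE 0.101, unadjusted p = 0.0142, adjusted p = 0.851, edgeR quasi-likelihood, BH-adjusted). Luc7l3, a splicing factor that associates with the U1 particle, had a log2 fold change of 0.33 (SE 0.132, unadjusted p = 0.0376, adjusted p = 0.851, the same test), with AdWT and AdKO overlapping. These 2 of 8 compare with 2.76% of all rows that were higher at an unadjusted p under 0.05, and neither passed the adjusted threshold. The count of 8 of 8 became 6 of 8 without AdWT 3 and 7 of 9 without AdKO 1 or without AdKO 3, and the summed level, 274 ± 30.2 CPM in AdWT and 315 ± 20.8 CPM in AdKO, overlapped (exact permutation p = 0.2).

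The machinery that snoRNA hosts meet was counted in the same way. Of 14 genes of box C/D and H/ACA snoRNP proteins, 9 were tested, 7 higher and 2 lower in AdKO, at a median log2 value of 0.091, where 51.7% of all rows tested were higher. Naf1, an assembly factor of H/ACA particles, was at 23.8 ± 1.03 CPM in AdWT and 28.9 ± 1.13 CPM in AdKO (SD, n = 3 each), and all AdKO values lay above all AdWT values (log2 fold change 0.28, SE 0.0886). Gar1, an H/ACA core protein, was at 15.0 ± 0.928 CPM and 17.9 ± 0.492 CPM, also without overlap (log2 fold change 0.25, SE 0.106). Both had an adjusted p = 0.851 by edgeR quasi-likelihood, BH-adjusted, and did not pass the threshold, and 6.16% of all rows tested had every AdKO value above every AdWT value. Of 14 nonsense-mediated decay factors, 9 were tested, 4 upward and 5 downward around a median of -0.007, and none was at an unadjusted p under 0.05. Without AdWT 1 the split was 1 upward and 8 downward (median -0.057), and without AdKO 1 it was 2 and 7 (median -0.075). Smg1, the kinase of that pathway, held 1755 to 3518 counts (log2 fold change -0.19, SE 0.228), and Eif4a3, of the exon junction complex, was at 105 CPM in both groups (log2 fold change -0.01, SE 0.0617).

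No member passed the group comparison. By quasi-likelihood in edgeR, adjusted by Benjamini-Hochberg, 0 of the 3 members tested had an adjusted p under 0.05, as had 0 (0%) of all 9872 rows, and 0 of 3 had an unadjusted p under 0.05, where 5.73% of all rows did. DESeq2 gave an adjusted p to Malat1 and Gas5 among the members, 0.999 for each, and none to Snhg1, Snhg12, Rian or Mirg, and it called 27 of the 6891 rows to which it gave an adjusted p (0.392%). The groups did not overlap in 0 of the 3 members and in 11.9% of all rows. Over the 16 alternative settings the log2 fold change of Malat1 stayed between 0.10 and 0.26, whereas with each library left out in turn that of Gas5 ran from -0.19 to 0.09 and that of Snhg1 from -0.08 to 0.40.

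**Figure D3:**
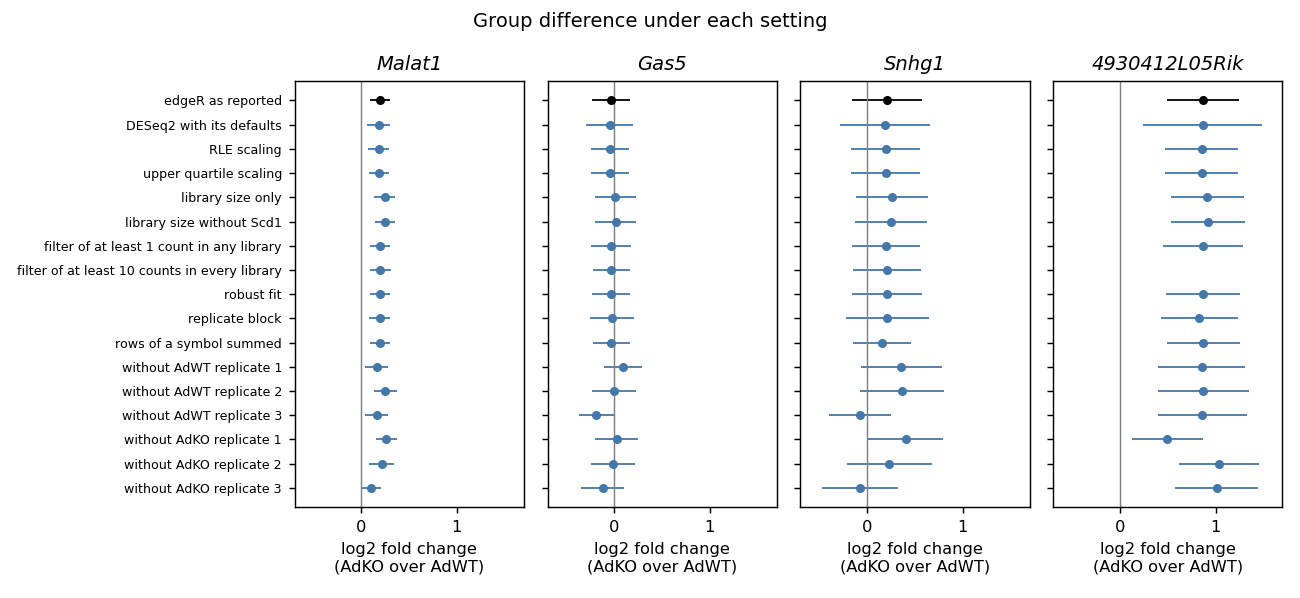
Log2 fold change of AdKO over AdWT with its standard error (horizontal bar) for Malat1, Gas5, Snhg1 and 4930412L05Rik under the reported edgeR test (black) and each alternative setting (blue), the zero line marking no difference. Malat1 lay between 0.10 and 0.26, while Gas5 (-0.19 to 0.09) and Snhg1 (-0.08 to 0.40) lay on both sides of 0.

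The members also differed in how much they varied within a group. The residual SD of log2 TMM-normalized CPM was 0.139 for Malat1, which placed it at percentile 29.6 of all rows tested, against 0.233 for Gas5 (percentile 51.1) and 0.538 for Snhg1 (percentile 86.9). The coefficient of variation over the 6 libraries was 11.7% for Malat1, 14.2% for Gas5, 31.9% for Snhg1 and 30.4% for Snhg12. The total counts of these members were 116604, 576, 165 and 45, and the part of counting error in the differences was not tested.

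To compare levels between genes, TMM-normalized CPM was divided by the exon length in kb of the NCBIM37 model. On this scale Malat1 was at 178 ± 20.8 CPM per kb (SD, n = 6), Gas5 at 1.63 ± 0.232, Snhg1 at 0.592 ± 0.189, 4930412L05Rik at 0.468 ± 0.219 and Snhg12 at 0.294 ± 0.0892 CPM per kb. Malat1 and Gas5 kept this order in every library. Snhg1, 4930412L05Rik and Snhg12 overlapped in their ranges, 0.317 to 0.855, 0.324 to 0.893 and 0.202 to 0.44 CPM per kb, so their order was not separated by the spread between libraries.

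Set against protein-coding genes with at least 1 count in the same library, Malat1 lay between percentiles 97.2 and 98.2. Gas5 lay between percentiles 50.2 and 54.4, Snhg1 between 33.9 and 46.2, 4930412L05Rik between 34.0 and 46.3 and Snhg12 between 28.5 and 39.3. The percentiles of Gas5 and below depend on which protein-coding genes are counted: among those that passed the filter on low counts, the mean percentile was 96.8 for Malat1, 35.5 for Gas5, 20.4 for Snhg1, 16.6 for 4930412L05Rik and 10.8 for Snhg12. The filter removes genes with low counts from the reference set, so it lowers these percentiles by construction. How messenger RNA was separated from ribosomal RNA was not given, and its part in these percentiles was not tested.

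Long noncoding genes as a class were lower than protein-coding genes. The annotation gave 1020 long noncoding symbols with a row, of which 765 had a count and 309 were tested, with a median of 0.174 CPM per kb among those with a count. For the protein-coding symbols these were 12242 of 16424 (74.5%), 7796 tested and a median of 0.663 CPM per kb. Long noncoding genes together took 0.346% of all counts, and Malat1 alone took 0.109% to 0.157% of a library. Among the 1020, Malat1 ranked 1, Gas5 122, Snhg1 233, 4930412L05Rik 259 and Snhg12 318, and each of these lay above the class median. The rank of 4930412L05Rik rests on a mean over libraries at 0.324 to 0.333 CPM per kb in AdWT and 0.448 to 0.893 CPM per kb in AdKO. The class is as GENCODE M1 types each symbol, and it includes symbols of genes known to encode proteins, such as Oaz2 and Enho. It leaves out symbols without a unique gene model of that name, such as Mir22hg (8889 counts in total) and Snhg6 (1563), so the ranks do not cover them.

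**Figure D4:**
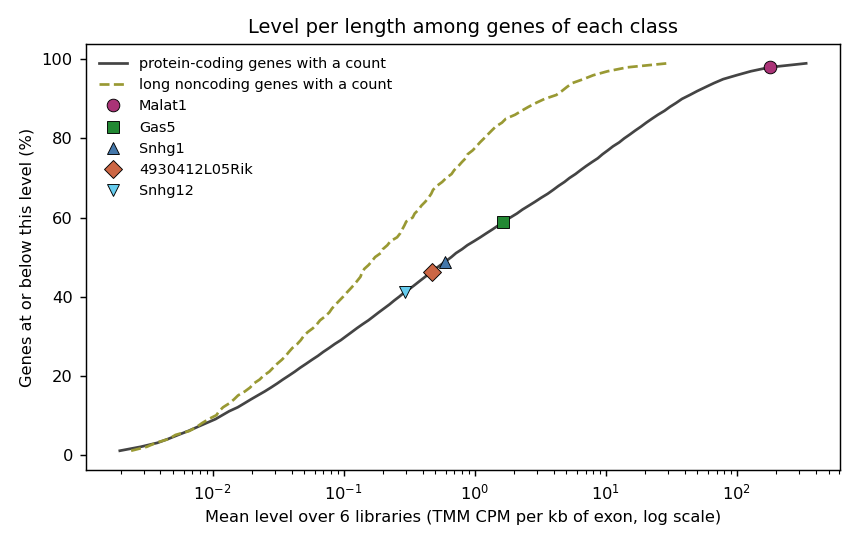
Share of genes at or below a level (percent, vertical) against mean TMM-normalized CPM per kb of exon over the 6 libraries (log scale, horizontal), for protein-coding genes (solid) and long noncoding genes (dashed) with a count in any library, with the members and 4930412L05Rik marked on the protein-coding curve. Because genes counted in any library are included, the members other than Malat1 sit higher on the curve than in the percentiles within single libraries, and Malat1, at 178 CPM per kb, lies above the 95% point of 78.5 CPM per kb.

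This places the count of the Lexis gene. Per kb, Malat1 was 192 to 540 times as high as 4930412L05Rik and Gas5 1.66 to 5.96 times as high, the lowest ratio in both cases being that of AdKO 1, the library with 21 counts of 4930412L05Rik. The level of 4930412L05Rik was 0.531 ± 0.00773 CPM in AdWT and 0.982 ± 0.399 CPM in AdKO (SD, n = 3 each). Its log2 fold change was 0.87 (SE 0.381, unadjusted p = 0.055, adjusted p = 0.851, edgeR quasi-likelihood, BH-adjusted), every AdKO value lay above every AdWT value, as in 6.16% of all rows tested (exact permutation p = 0.1), and without AdKO 1 it was 0.49. In edgeR the unadjusted p of 4930412L05Rik was 0.0464 with library size only, 0.0462 with library size without Scd1 and 0.0447 without AdKO 2. Its adjusted p, where one was given, was 0.498 or above in every alternative. With 8 to 21 counts, this gene had a total count between those of Snhg12 and Snhg1.

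Other symbols were read from a list of 37 drawn up as long noncoding RNAs, of which 16 had a row and 7 entered the test. In AdKO 5 of the 7 were higher and 2 lower, the median log2 fold change being 0.185, with none at an unadjusted p under 0.05. Of the 2 lower, 1 was Ptprv (log2 fold change -0.29), which is known to encode a receptor-type tyrosine phosphatase. With rows of a symbol summed 4 were higher and 4 lower at a median of 0.089, and with the replicate block 4 were higher and 3 lower. Miat, Pvt1 and Dlx6os1 were listed at 0. Mir22hg, the host transcript of miR-22, was the highest of them with 1339 to 1693 counts, at 89.2 ± 10.1 CPM in AdWT and 101 ± 8.6 CPM in AdKO (SD, n = 3 each, log2 fold change 0.19, SE 0.104). Dnm3os, which carries microRNAs and is made in mesenchymal cells, was at 16.1 ± 3.27 CPM and 21.5 ± 3.9 CPM (log2 fold change 0.42, SE 0.197). Each of these overlapped between AdWT and AdKO, while their summed level was 119 ± 8.22 CPM in AdWT and 138 ± 5.85 CPM in AdKO without overlap (exact permutation p = 0.1, the smallest possible). Mir22hg alone held most of that sum.

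Transcripts that can lack a poly(A) tail were read because the way in which messenger RNA was separated from ribosomal RNA was not given in the sources used here. Histone genes can also make transcripts with such a tail, so these rows do not show which way was used. Of 21 such genes listed, 3 had a row and 2 were tested. Hist1h2bc, a histone gene, was at 102 ± 15.2 CPM in AdWT and 111 ± 1.84 CPM in AdKO (SD, n = 3 each, log2 fold change 0.12, SE 0.107). Rmrp, the RNA of a ribonuclease that processes ribosomal RNA, was at 8.6 ± 2.24 CPM and 5.04 ± 2.37 CPM, with overlap (log2 fold change -0.76, SE 0.37). Terc, the RNA of telomerase, did not pass the filter and held 0, 0 and 1 counts in AdWT and 4, 7 and 3 counts in AdKO. When every row with a count was admitted, its adjusted p was 0.84 (unadjusted p = 0.00937) in edgeR. In that fit 845 of 19554 rows had an unadjusted p under 0.05. The AdWT counts of Terc lay under the floor of 3 counts, so no fold change is given.

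The rows most like each tested member across the 6 libraries were found by Pearson's correlation of log2 TMM-normalized CPM among 4745 rows with a mean of at least 10 CPM. For Malat1 these were Car13 (r = 0.991), a cytosolic carbonic anhydrase, Rab4a (r = 0.940), a GTPase of endosome recycling, and Wrb (r = 0.937), a receptor for insertion of tail-anchored proteins. For Gas5 they included Glipr2 (r = 0.989) and Map2k1 (r = 0.984), a kinase of the ERK pathway. For Snhg1 they were Sc4mol (r = 0.968), an enzyme of cholesterol synthesis, Ifngr2 (r = 0.967), a chain of the interferon gamma receptor, and Pi4k2a (r = 0.963), a lipid kinase. These are descriptions over 6 points that share their libraries. In all 14, 21 and 57 rows had r of at least 0.9 with Malat1, Gas5 and Snhg1, respectively.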

How the data were processed

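RNA of iWAT was made into libraries with a KAPA Stranded RNA-Seq kit and sequenced on an Illumina HiSeq instrument. Alignment was to mm9, by HISAT2, and the authors deposited the counts per row as raw numbers, with no normalization. The counting tool, the annotation, the strand setting and the treatment of reads shared between rows were not given in the sources used here. Nothing in the labels links a library to a litter or an extraction batch. The study describes 3 biological replicates per group, and p-values measure the spread between these libraries. A column that belongs to no sample was not found.

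Groups were taken from the sample labels. Counts were compared with edgeR 4.0.16 in R 4.3.3 (filterByExpr by group, TMM, glmQLFit and glmQLFTest, Benjamini-Hochberg adjustment over 9872 rows, threshold 0.05), and DESeq2 1.42.0 was an alternative. Both tools were checked on simulated data. Fold changes are AdKO over AdWT, and a symbol with several rows is represented by its highest row. Exact permutation tests used log2 CPM with 0.5 counts added. Levels per kb used the exon union of GENCODE M1 on NCBIM37, and long noncoding means its lincRNA and processed transcript classes. Tables and plots came from pandas 2.3.3, scipy 1.17.1, matplotlib 3.10.9 and numpy 2.4.6 under Python 3.11.15. Total counts of 14470542 to 17882713 per library and a common biological coefficient of variation of 0.196 set the precision.

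The members, lists and tests were chosen with earlier results of these data known. Genes that are not members were named by a rule: from each list up to 4 genes with the smallest unadjusted p under 0.05, filled up to 2 by count, and the 3 rows most correlated with each tested member. Other genes, such as those listed at 0, Meg3, Zbtb37, Terc, Ptprv, Oaz2 and Enho, were named after their values were seen. Alternatives were DESeq2, RLE, upper quartile, library size and library size without Scd1 as scaling, filters of a minimum of 1 count in any or 10 counts in every library, a robust fit, a replicate block, rows of a symbol summed and each library left out in turn. Planned results for Neat1, Snhg8 and Kcnq1ot1 were left out because there was no count or no row. Some values of single genes are not reported here.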

Additional observations from a re-analysis of the deposited data

How the results depend on the processing

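Malat1 kept its direction in all 16 alternatives and never reached an adjusted p under 0.05 (0.61 to 0.999), with the lowest unadjusted p, 0.0493, under library size counted without Scd1. Gas5 turned to 0.0107 with library size only and to 0.0124 with library size without Scd1, scalings that also moved the median of all rows from 0.007 to 0.054 and 0.057, and ran from -0.19 to 0.0911 with each library left out in turn. Snhg1 ran from -0.0765 to 0.40 and the summed snoRNA hosts from -0.137 (without AdWT 3) to 0.235 (without AdWT 1) with each library left out, and the hosts were at -0.06 without AdKO 3. Without division by length the mean percentile among protein-coding genes was 99.3 for Malat1, 23.0 for Snhg12 and 28.2 for 4930412L05Rik. Among protein-coding genes that passed the filter it was 96.8 for Malat1, 35.5 for Gas5, 20.4 for Snhg1, 10.8 for Snhg12 and 16.6 for 4930412L05Rik. In alternatives chosen after seeing the data, it was 95.5, 37.8, 28.7, 22.5 and 26.3 in that order among protein-coding genes with 1 row, and 97.2 for Malat1, 55.3 for Gas5 and 37.4 for Snhg12 with the longest transcript as the length. Rows with an adjusted p under 0.05 numbered 27 with DESeq2, 1 with every row counted at least once admitted, and 0 to 1 with each library left out, the 1 being without AdKO 3. Rows with an unadjusted p under 0.05 ranged from 329 (without AdWT 2) to 1208 (without AdWT 1), against 566 with all libraries. The causes were not tested.

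With the replicate number as a block, the log2 fold change was 0.19 for Malat1 (adjusted p = 0.941 from edgeR), -0.02 for Gas5, 0.21 for Snhg1 and 0.83 for 4930412L05Rik, and 0 rows had an adjusted p under 0.05 (418 an unadjusted p under 0.05). The deviations of same-numbered libraries correlated at -0.069, -0.14 and 0.317. Since not every pair passed 0.1, the numbers were not taken to pair the libraries, although AdWT 3 and AdKO 3 correlated and shared high epithelial markers.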
